A study of Mus musculus with 54 samples.

Results

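Loss of p53 on an Rnaseh2b mutant background was examined in cerebella at postnatal day 5 (P5). For this, 4 RNA libraries labelled as Rnaseh2b and p53 mutants (Rnaseh2b/p53) were set against 3 labelled as Rnaseh2b mutants. These 7 libraries were chosen by their genotype and age labels out of 54 in the series. The comparison asks which changes after loss of Rnaseh2b need p53. Both genotypes carried Nes-cre, and so did 3 p53 libraries without the Rnaseh2b mutation. Another 3 libraries were labelled control, with no Cre named for them, so comparisons with control cannot tell Nes-cre from the mutations. All 13 were total RNA from whole mouse cerebellum at P5, from stranded libraries, and a further 7 P5 libraries labelled Atm or Rnaseh2b/Atm shared the estimate of spread. Nes-cre is active in neural progenitors and their descendants, so microglia, blood vessels and meninges are not expected to recombine. The labels do not say whether replicates came from separate animals, so p-values measure the spread between these libraries only.

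Rnaseh2b encodes a subunit of RNase H2, the enzyme that cuts out ribonucleotides built into DNA and degrades RNA paired with DNA. Cells without it accumulate DNA damage, and p53, encoded by Trp53, answers damage by switching on genes for cell cycle arrest, apoptosis and repair. In the first postnatal week the cerebellum is still producing granule neurons from dividing progenitors. RNase H2 loss is also known for raising interferon-stimulated genes, which respond to nucleic acids sensed in the cytosol.

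Depth was 48.16 to 95.07 M reads in genes for 19 of the 20 P5 libraries and 711 M reads for Rnaseh2b/p53 replicate 3. Marker genes set the libraries apart before any comparison. Genes of meninges and fibroblasts averaged 4.53, 4.50, 4.52 and 4.70 log2 CPM (CPM being reads scaled to a fixed library total) in Rnaseh2b/p53 replicates 1 to 4, against 5.22, 4.90 and 5.62 in Rnaseh2b replicates 1 to 3. Genes of the medulla and pons averaged −1.29, −3.48, 0.37 and 1.03 in Rnaseh2b/p53 and 1.32, 2.96 and 0.97 in Rnaseh2b. Midbrain genes averaged 2.09, 2.38, 2.70 and 3.09 in Rnaseh2b/p53, against 2.41, 1.31 and 0.71 in Rnaseh2b. Rnaseh2b replicate 3 was thus highest for meninges and lowest for midbrain, and Rnaseh2b replicate 2 was highest for medulla and pons. Markers of cerebellum were present in every library. Zic1, of granule cells, averaged 9.07 log2 CPM in Rnaseh2b/p53 and 8.91 in Rnaseh2b, and Calb1, of Purkinje cells, averaged 7.51 and 7.83 in the same order of groups. Xist, the transcript of the inactive X chromosome, was high in Rnaseh2b/p53 replicate 2 (8.29) and Rnaseh2b replicate 3 (7.81). It was at most 0.18 in the other 5, so both compared groups hold both sexes. It was high in all 3 control libraries (8.23, 7.73 and 8.46) and was −0.85, 8.075 and 8.35 in p53 libraries. Comparisons with control thus also differ in the mix of sexes, which was not tested beyond a model with Xist as a covariate. Control replicate 2 and Atm replicate 1 stood apart from the rest of their groups and enter only through the spread or the side comparisons. On the granule progenitor list control replicate 2 averaged 4.26, against 5.54 and 5.37 in the other control libraries. Atm replicate 1 averaged 2.89, against 5.01 and 5.41 in the other Atm libraries. Leaving both out changed the calls in Rnaseh2b/p53 against Rnaseh2b from 466 to 1140.

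Trp53 transcript was 2.23, 2.16, 1.76 and 1.94 log2 CPM in Rnaseh2b/p53, against 3.98, 3.67 and 4.15 in Rnaseh2b. The groups did not overlap, and Trp53 fell by 1.91 on the log2 scale (SE 0.29; limma, adjusted p = 0.00472). It averaged 1.64 ± 0.31 in p53 libraries and 3.71 ± 0.61 in control (SD, n = 3 each), so the label is borne out in every library. Rnaseh2b was 2.17, 2.30, 2.21 and 2.11 in Rnaseh2b/p53 and 1.87, 2.12 and 2.03 in Rnaseh2b, overlapping ranges whose difference of 0.19 ± 0.21 (SE) was not called (limma, adjusted p = 0.709). Both groups lay far below the 4.26 to 4.54 of p53 libraries and the 3.76 to 4.61 of control.

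In Rnaseh2b/p53 against Rnaseh2b, 172 genes rose and 294 fell of 15421 tested (limma, adjusted p below 0.05; n = 4 and 3). These are 1.12% and 1.91% of the genes tested, and 3.02% together. The median rise was 0.34 and the median fall −0.53 log2, while the median over all genes was 0.000357. The count rested on single libraries. It was 37 without Rnaseh2b replicate 3, 701 without Rnaseh2b replicate 1, and 149 to 242 without any 1 of the other 5 libraries. When the mean of the meninges list entered the model, an alternative chosen after seeing the data, limma called 0 genes, with 1352 under 0.05 before adjustment. That mean itself differs between the groups, as given above, and Trp53 was not called in that model either. The 10 genes named here that stayed called under each removal of 1 library were Trp53, Aen, Sesn2, Ccng1, Ephx1, 9030617O03Rik, Lhx5, Col14a1, Vps13a and Ppm1m. Of 62 named genes called, 23 stayed called with the replicate number as a block.

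Some known p53 targets fell. Of 63 listed, 62 passed the filter on low values, and of these 13 fell, none rose and 49 were not called, with a median of −0.19 log2. Called or not, 19 of the 62 differences were above 0 and 43 below. Mgmt and Trp53cor1, among the 13, passed the filter through Rnaseh2b and Rnaseh2b/Atm libraries, where they are higher. The share of all genes that fell was 1.91%. Groups did not overlap for 27 targets that were lower and 2 that were higher in Rnaseh2b/p53, against 11.9% and 11.1% of all genes. Without Rnaseh2b replicate 3, 5 of the targets fell, and 8 to 10 fell without any 1 of the other libraries. With the meninges covariate the count was 0 and the median −0.13. It was 7 with the replicate number as a block. In the other direction, 21 fell without control 2 and Atm 1, and 17 fell with only the compared groups in the fit.

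Among targets for arrest and feedback, 4 of 21 fell, but the median was 0.01 and 13 of the differences were above 0 against 8 below. Ccng1, a cyclin induced by p53, was 5.90, 5.87, 5.88 and 6.07 log2 CPM in Rnaseh2b/p53 and 6.41, 6.55 and 6.62 in Rnaseh2b, with no overlap. It fell by 0.59 (SE 0.09; limma, adjusted p = 0.00567). Sesn2, a stress protein that restrains growth signalling, was 3.49, 3.37, 3.50 and 3.59 in Rnaseh2b/p53, against 4.30, 4.34 and 4.20 in Rnaseh2b. All Rnaseh2b/p53 values lay below the Rnaseh2b range, a fall of 0.79 (SE 0.12; limma, adjusted p = 0.0039). Phlda3, an inhibitor of Akt signalling, fell by 0.94 (SE 0.23; limma, adjusted p = 0.0367). Trp53cor1, the non-coding RNA listed as Gm16197, is scarce. It was −2.42, −3.15, −2.85 and −4.79 in Rnaseh2b/p53 and −0.40, −0.02 and 0.36 in Rnaseh2b, and fell by 3.28 (SE 0.58; limma, adjusted p = 0.00954). Cdkn1a, the p21 inhibitor of cyclin-dependent kinases, was 3.89, 3.94, 3.97 and 4.05 in Rnaseh2b/p53, against 4.34, 4.36 and 4.46 in Rnaseh2b. Its groups did not overlap either, but the difference of −0.43 ± 0.16 (SE) was not called (limma, adjusted p = 0.14), and control libraries ran from 3.78 to 4.38.

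**Figure D1:**
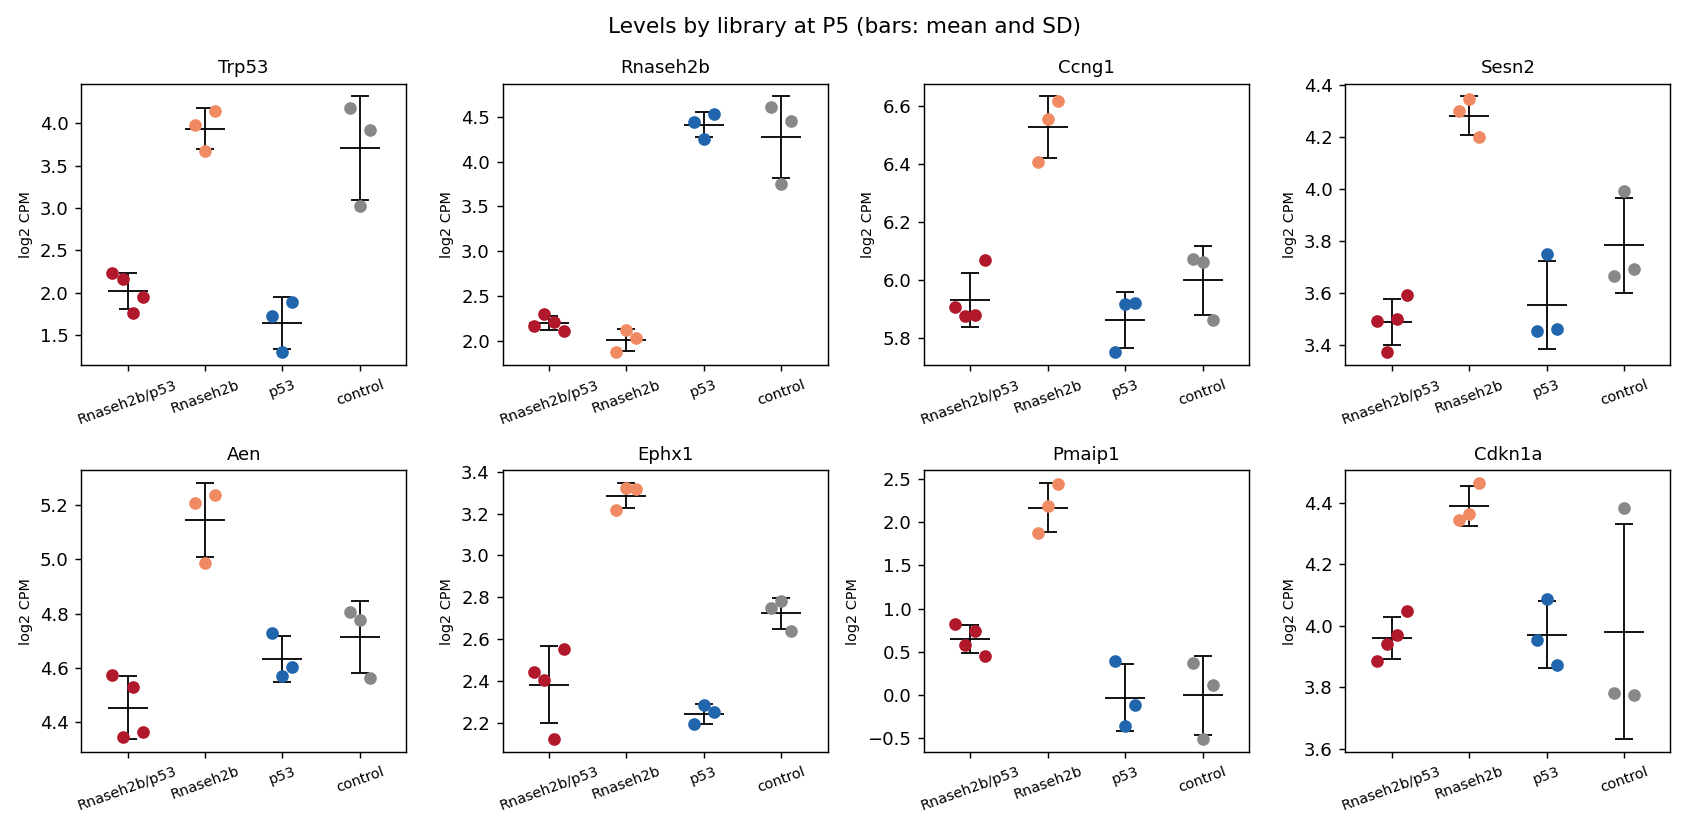
Levels in log2 CPM of 8 genes in each P5 library (points), with the mean and SD of each group (bars), for Rnaseh2b/p53, Rnaseh2b, p53 and control. For Trp53, Ccng1, Sesn2, Aen, Ephx1, Pmaip1 and Cdkn1a the 4 Rnaseh2b/p53 points lie below the 3 Rnaseh2b points, and for Rnaseh2b they overlap.

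Among targets for apoptosis, 3 of 18 fell, with a median of −0.32. Aen, a nuclease that acts in apoptosis, was 4.57, 4.35, 4.53 and 4.36 log2 CPM in Rnaseh2b/p53 and 5.21, 4.99 and 5.24 in Rnaseh2b, a fall of 0.69 without overlap (SE 0.09; limma, adjusted p = 0.00268). Zmat3, an RNA-binding protein, fell by 0.56 (SE 0.12; limma, adjusted p = 0.0219). Bax, which permeabilises mitochondria, was 4.89, 4.59, 4.73 and 4.49 in Rnaseh2b/p53 and 5.04, 4.94 and 4.99 in Rnaseh2b. It fell by only 0.31 (SE 0.08; limma, adjusted p = 0.0367). Pmaip1, which encodes the death trigger Noxa, was 0.82, 0.58, 0.73 and 0.45 in Rnaseh2b/p53, against 1.88, 2.19 and 2.44 in Rnaseh2b. Those ranges are far apart, yet the difference of −1.52 ± 0.42 (SE) was not called (limma, adjusted p = 0.0583). The receptor gene Eda2r was likewise apart, at 2.90 to 3.46 in Rnaseh2b/p53 and 4.60 to 4.82 in Rnaseh2b. It missed the threshold at −1.60 ± 0.60 (SE; limma, adjusted p = 0.15). Both genes were low in Atm replicate 1, Pmaip1 at −1.98 against 0.28 and 0.22 in the other Atm libraries. Eda2r was −0.08 there, against 3.01 and 3.38, and 1.77 in control replicate 2, against 3.72 and 3.27. These libraries enter the shared estimate of spread. Apaf1, which assembles the apoptosome, overlapped between the groups and differed by 0.06.

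Among targets for metabolism and repair, 6 of 23 fell, with a median of −0.195. Ephx1, an epoxide hydrolase, was 2.44, 2.40, 2.12 and 2.55 log2 CPM in Rnaseh2b/p53 and 3.22, 3.32 and 3.32 in Rnaseh2b. The gap was wider than either range, a fall of 0.90 (SE 0.12; limma, adjusted p = 0.00236). Dglucy, listed as 9030617O03Rik, fell by 1.04 (SE 0.14; limma, adjusted p = 0.00255). Dcxr, a sugar reductase, fell by 0.79, Abhd4, a lipid hydrolase, by 0.33 and Slc19a2, a thiamine transporter, by 0.31. Mgmt, which removes alkyl groups from DNA, fell by 0.91. It is scarce, at −0.61, −0.245, −0.475 and −0.76 in Rnaseh2b/p53, against 0.365, 0.33 and 0.47 in Rnaseh2b. No Rnaseh2b/p53, p53 or control library reached 1 CPM for Mgmt or Trp53cor1. Pcna, the sliding clamp of replication, overlapped between the groups and differed by −0.24 ± 0.30 (SE; limma, adjusted p = 0.76).

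A description of promoters stands beside these targets because several of them moved together. The p53 response element is a pair of decamer half-sites, and its consensus reads the same on both strands, so 1 search covers both. It was looked for with 0 or 1 base between the half-sites in the 250 bases before to 50 after each start in the RefSeq promoter table (GRCm38.p6). The table held 32851 windows for 27025 genes, and each gene was scored by its best window. A gene with more starts thus had more chances of a match. Of 27025 genes, 218 (0.807%) held a match with at most 2 letters off the consensus. Of 50 targets with a promoter in the table it was 8 (16%), and of 11 targets that fell it was 2 (18.2%), Ccng1 and Bax. Where a gene has several starts, the one with the best match was used, which need not be its main promoter. The 250 bases before that start are shown for both and for Cdkn1a, with the match in capitals. They are chr11:40755287-40755536 on the minus strand for Ccng1, chr7:45466899-45467148 on the minus strand for Bax and chr17:29090729-29090978 on the plus strand for Cdkn1a, 5′ to 3′. The match is 1 letter off in Ccng1 and Cdkn1a and 2 letters off in Bax.
Ccng1: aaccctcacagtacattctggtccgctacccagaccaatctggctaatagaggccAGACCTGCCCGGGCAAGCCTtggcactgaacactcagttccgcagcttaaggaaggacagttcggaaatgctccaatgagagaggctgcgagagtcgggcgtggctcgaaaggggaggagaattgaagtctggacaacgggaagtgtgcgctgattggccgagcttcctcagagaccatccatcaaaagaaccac
Bax: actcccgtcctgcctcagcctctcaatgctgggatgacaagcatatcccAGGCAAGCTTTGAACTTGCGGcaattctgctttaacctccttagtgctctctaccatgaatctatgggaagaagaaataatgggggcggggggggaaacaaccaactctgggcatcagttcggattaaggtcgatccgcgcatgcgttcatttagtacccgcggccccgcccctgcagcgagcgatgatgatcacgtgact
Cdkn1a: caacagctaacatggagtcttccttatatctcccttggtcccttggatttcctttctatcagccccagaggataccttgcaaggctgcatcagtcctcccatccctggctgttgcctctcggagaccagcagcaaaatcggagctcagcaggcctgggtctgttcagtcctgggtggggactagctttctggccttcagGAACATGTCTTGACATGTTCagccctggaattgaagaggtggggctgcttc

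A match in this window is not a measured binding site, and the other 9 promoters of fallen targets hold no such letters there.

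The same 13 targets were set beside the effect of Rnaseh2b loss with and without p53. These comparisons share libraries with the one that picked the genes, so their values are given side by side and not as separate evidence. The median of the 13 was −0.79 log2 in Rnaseh2b/p53 against Rnaseh2b, 0.03 in Rnaseh2b/p53 against p53 (range −0.23 to 0.38) and 0.53 in Rnaseh2b against control (range 0.17 to 3.26). The 3.26 was that of Trp53cor1, which lay below 1 CPM in every control library. Over all 62 targets tested the 3 medians were −0.19, 0.00612 and 0.20. In p53 against control the 13 had a median of −0.16 (group means, no test). Ccng1 differed by 0.07 ± 0.09 (SE) between Rnaseh2b/p53 and p53, which was not called, and rose by 0.53 ± 0.10 (SE) in Rnaseh2b against control (limma, adjusted p = 0.0212). For Sesn2 these values were −0.07 and 0.50, and for Ephx1 0.14 and 0.56, none of them called. Levels in Rnaseh2b/p53 lay close to those in p53 libraries. Ccng1 averaged 5.93 ± 0.09 (SD, n = 4) in Rnaseh2b/p53 and 5.86 ± 0.10 (SD, n = 3) in p53, and Sesn2 averaged 3.49 ± 0.09 and 3.55 ± 0.17 in the same order of groups.

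**Figure D2:**
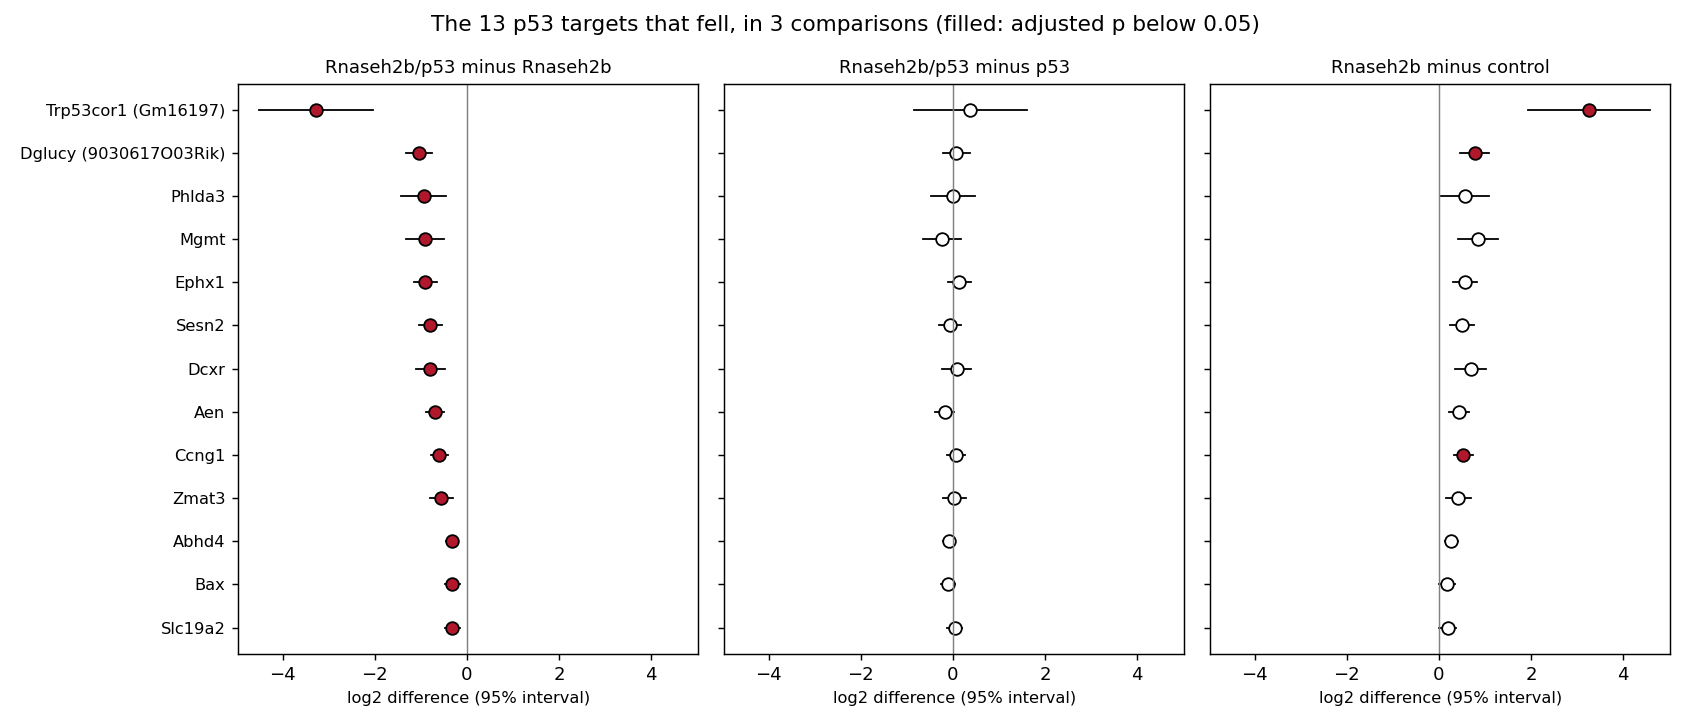
Log2 differences with 95% intervals (limma) of the 13 p53 targets that fell, in Rnaseh2b/p53 minus Rnaseh2b, Rnaseh2b/p53 minus p53 and Rnaseh2b minus control, filled where called. Medians are −0.79, 0.03 and 0.53, and the 3 panels share libraries.

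Dependence on p53 was tested by the difference of the effects of Rnaseh2b loss with and without p53. That difference includes control libraries with no Cre named, so Nes-cre and p53 dependence cannot be told apart in it. All control libraries also had high Xist, so the mix of sexes differs in it as well. Only 1 of 15421 genes (0.00648%) was called (limma, smallest adjusted p = 0.00359). Before adjustment 1011 genes were under 0.05. A voom fit of the recovered reads also gave 1, and leaving out control replicate 1 gave 16. The gene called was the gene model Gm15920, named after its value was seen. It was 2.42 to 2.48 log2 CPM in Rnaseh2b/p53 and 3.27 in each p53 library, against 2.72 to 2.78 in Rnaseh2b and 2.36 to 2.62 in control, a difference of effects of −1.08 (limma, adjusted p = 0.00359). No p53 target was called in it. Over all 62 targets its median was −0.15, against −0.0143 over all genes. The 13 targets that fell had a median of −0.56 and a smallest adjusted p of 0.176 (limma), but they were picked from libraries that enter this difference, so its negative sign is partly fixed by that choice. For Ccng1 it was −0.46 with a 95% interval of −0.74 to −0.17, and for Aen −0.61 with an interval of −0.90 to −0.32.

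Genes with the smallest p in that test included members of other groups, none of them called in it. Gpr34, a receptor of microglia, rose by 0.37 ± 0.09 (SE) in Rnaseh2b/p53 against Rnaseh2b (limma, adjusted p = 0.0379) and by 0.52 ± 0.09 in Rnaseh2b/p53 against p53 (limma, adjusted p = 0.0389). It was 2.75, 2.74, 2.92 and 3.01 in Rnaseh2b/p53 and 2.46, 2.62 and 2.38 in Rnaseh2b, a small gap between the groups. Mavs, the mitochondrial adaptor of RNA sensors, was 2.68 to 2.73 in Rnaseh2b/p53 and 3.02 to 3.19 in Rnaseh2b, and fell by 0.39 (SE 0.07; limma, adjusted p = 0.00835). It was the one of 9 nucleic acid sensing genes that was called (3.02% of all genes were). Mapk8, the stress kinase JNK1, rose by 0.25 and B3galt2, a galactosyltransferase, by 0.32.

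Responses to Rnaseh2b loss could also be listed from libraries of other groups. In these libraries too the meninges list differed, at 5.16 to 5.67 log2 CPM in Rnaseh2b/Atm and 4.75 to 4.81 in Atm, and the choroid plexus list was at 4.17 to 4.72 in Rnaseh2b/Atm and 1.10, 1.55 and 3.78 in Atm. The part of these tissues in the list was not tested. Both comparisons share the estimate of spread, so a gene with a low spread is more readily called in both. The shares over all genes do not allow for that. In Rnaseh2b/Atm against Atm, 1154 genes rose (7.48%) and 311 fell (2.02%), 9.5% of the genes tested together. Of the 1154, 132 fell in Rnaseh2b/p53 against Rnaseh2b (11.4%, against 1.91% of all genes), 4 rose, and the median was −0.23. Of the 311, 25 rose (8.04%, against 1.12%), 1 fell, and the median was 0.10. The 132 make up 44.9% of all falls and the 25 make up 14.5% of all rises. Without Rnaseh2b replicate 3 the 132 became 16, and they were 48 to 79 without any 1 of Rnaseh2b replicate 2 and the 4 Rnaseh2b/p53 libraries. They were 167 without Rnaseh2b replicate 1, 226 without control 2 and Atm 1, and 0 with the meninges covariate.

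A second listing came from Rnaseh2b against control, where 46 genes rose (0.298%) and 59 fell (0.383%). These groups differ in the mix of sexes, and with Xist as a covariate 34 genes were called in place of 105. Read in Rnaseh2b/p53 against p53, which shares only the estimate of spread with the list, 5 of the 46 rose. The share of all genes that rose was 0.123%, and none of the 46 fell. These 5 were Myh3, Mylpf, Myog and Tnni1, genes of developing skeletal muscle, and the gene model Gm10395. The muscle list averaged −0.85 log2 CPM in p53 and −0.18 in control, below 1 CPM. It averaged 0.87 in Rnaseh2b/p53 and 1.61 in Rnaseh2b. The part of the filter on low values in this share was not tested. The median of the 46 was 0.09 there and that of all genes −0.00231. Of the 59 falls only Rnaseh2b itself fell there, against 0.0648% of all genes. The list is itself unstable, since its 105 calls (0.681%) became 1 without control replicate 2 or Rnaseh2b replicate 3, 3 without control replicate 3, 62 without Rnaseh2b replicate 2 and 251 without control replicate 1.

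None of the 30 interferon-stimulated genes that passed the filter, of 37 listed, was called in Rnaseh2b/p53 against Rnaseh2b by limma, 4 were higher at an unadjusted p below 0.05, and their median was 0.06 log2. The list averaged 1.66, 2.20, 2.04 and 1.91 log2 CPM in Rnaseh2b/p53 and 1.72, 1.56 and 2.005 in Rnaseh2b, overlapping ranges. The p53 libraries averaged 1.22 to 1.33 and control 1.03 to 1.55. Medians over the 30 were 0.59 in Rnaseh2b/p53 against p53 and 0.57 in Rnaseh2b against control. Oasl2, a relative of the oligoadenylate synthetases, rose by 1.44 in Rnaseh2b/p53 against p53 (limma, adjusted p = 0.032), and Gbp2, a guanylate-binding protein, and Ifi35 rose with it (19 rises in all genes, 0.123%). In Rnaseh2b against control, 2 others rose, the guanylate-binding protein gene Gbp7 by 0.65 and Herc6, a ubiquitin ligase gene, by 0.995 (limma, adjusted p = 0.0406 and 0.0302; 0.298% of all genes rose).

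Some phagocytic and complement genes fell. Of 15 phagocytic microglia genes 5 fell (1.91% of all genes did), with a median of −0.32, and of 13 complement and antigen presentation genes 4 fell, with a median of −0.18. The phagocytic list averaged 4.25 ± 0.15 log2 CPM in Rnaseh2b/p53 and 4.83 ± 0.25 in Rnaseh2b, and without the Rnaseh2b mutation it averaged 4.10 ± 0.02 in p53 and 4.50 ± 0.20 in control (SD, n = 4 and 3 each). On both backgrounds the libraries with p53 loss lay below those without it. Spp1, the secreted protein osteopontin, was 4.53, 3.95, 3.76 and 3.86 log2 CPM in Rnaseh2b/p53, against 5.23, 5.07 and 6.86 in Rnaseh2b. Rnaseh2b replicate 3 was far above the others, and Spp1 fell by 1.69 (SE 0.36; limma, adjusted p = 0.0214). It was also low in p53, at 3.78 ± 0.05, against 5.08 ± 0.40 in control (SD, n = 3 each), and its difference of effects was −0.39 ± 0.52 (SE; limma, adjusted p = 0.979). The lysosomal proteases Ctsd and Ctsb fell by 0.37 and 0.32, and the integrin Itgax by 1.28. Itgax averaged −0.82 in p53 and 0.43 in control, a difference of effects of −0.03 ± 0.40 (SE). C1qa, a subunit of the first complement component, was 3.31, 3.22, 3.03 and 2.75 in Rnaseh2b/p53 and 3.77, 3.58 and 3.94 in Rnaseh2b, a fall of 0.68 (SE 0.13; limma, adjusted p = 0.0114). C1qb and C1qc fell by 0.47 each and C4b, another complement component, by 0.79. C4b averaged 2.70 in p53 and 3.58 in control, and its difference of effects was 0.08 ± 0.30 (SE), while C1qc averaged 3.34 in p53 and 3.65 in control. Of 21 microglia genes 2 fell, among them the protease Ctss by 0.47, and Gpr34 rose, while Csf1r (−0.27, adjusted p = 0.0944 by limma) and Cx3cr1 (−0.09, adjusted p = 0.58 by limma) were not called. The median of the 21 was −0.295, with 5 differences above 0 and 16 below. At an unadjusted p below 0.05 (limma), 3 of them were higher and 11 lower. In bulk tissue fewer cells and less RNA per cell cannot be told apart.

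**Figure D3:**
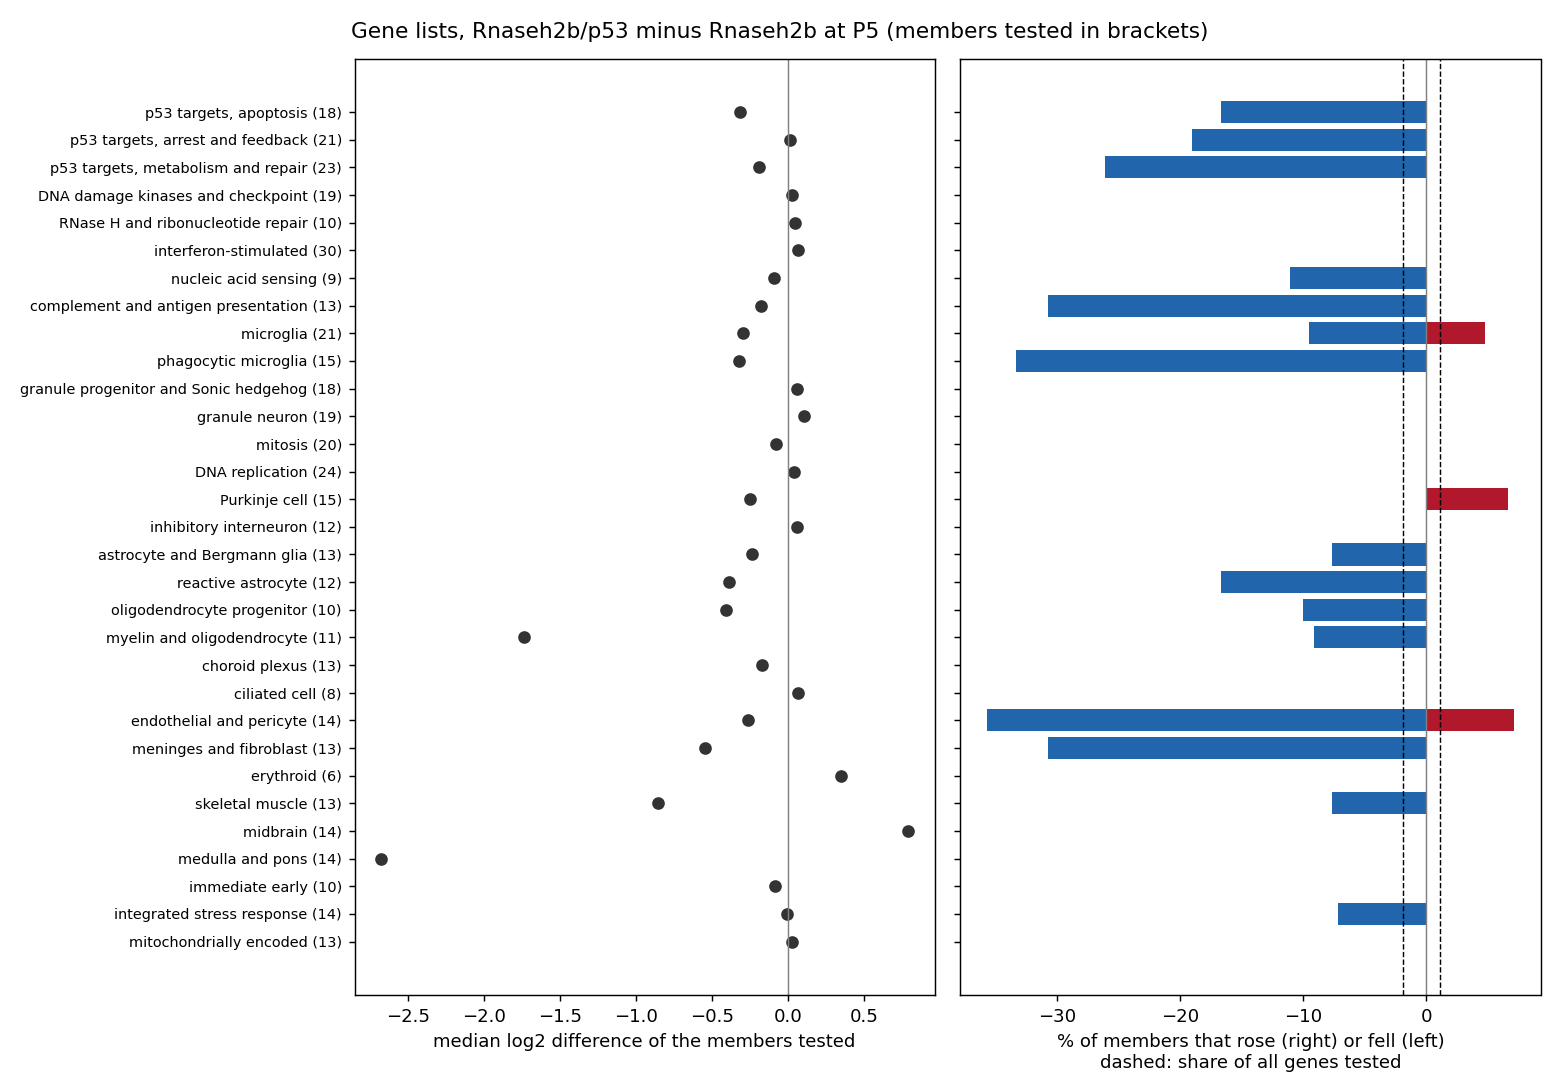
Median log2 difference (left) and percentage of members that rose or fell (right) for 31 gene lists in Rnaseh2b/p53 minus Rnaseh2b, with the shares over all genes as dashed lines (1.12% and 1.91%). The lists with 4 or more falls are endothelial and pericyte, phagocytic microglia, complement, meninges, and p53 targets for arrest and for metabolism.

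Some vascular, meningeal and glial markers also fell. Of 14 endothelial and pericyte genes 5 fell and 1 rose, where 1.91% of all genes fell and 1.12% rose. Pdgfrb, a receptor of pericytes, fell by 0.41 (SE 0.09; limma, adjusted p = 0.0217) and Rgs5, a regulator of G protein signalling in pericytes, by 0.49. Kcnj8, a potassium channel subunit of pericytes, fell by 0.65, and Slco1c1, a thyroid hormone transporter of brain endothelium, rose by 0.51. These last genes lie near each other on chromosome 6 among other called genes, and the part of their position was not tested. Of 13 meningeal genes 4 fell (median −0.55), all collagens. Col1a1 was 5.62, 5.67, 5.88 and 5.97 log2 CPM in Rnaseh2b/p53 and 6.47, 6.86 and 9.13 in Rnaseh2b, with Rnaseh2b replicate 3 far above the other libraries, and fell by 1.70 (SE 0.43; limma, adjusted p = 0.0422). Col14a1 was 2.08, 2.001, 2.22 and 2.18 in Rnaseh2b/p53 and 2.75, 3.85 and 4.18 in Rnaseh2b, a fall of 1.47 (SE 0.23; limma, adjusted p = 0.0055). The part of meningeal tissue in the other falls was not tested beyond the model above, which called none of them.

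Of 12 reactive astrocyte genes, Hspb1 and Gfap fell, by 0.77 and 0.79, and of 13 astrocyte genes 1 fell (1.91% of all genes did). Gfap, the intermediate filament of astrocytes, averaged 6.61 ± 0.15 in p53 and 7.22 ± 0.38 in control (SD, n = 3 each), a difference of effects of −0.18 ± 0.29 (SE). Hspb1, a small heat shock protein, averaged 1.37 in p53 and 1.51 in control, a difference of effects of −0.63 ± 0.22 (SE; limma, adjusted p = 0.493). Myelin genes had a median of −1.74 and the groups did not overlap for any of 11, all lower, against 11.9% of all genes. Only Cldn11 was called, at −1.40 (SE 0.32; limma, adjusted p = 0.0287). The myelin list averaged 4.08, 3.33, 3.96 and 4.58 in Rnaseh2b/p53 and 5.06, 6.34 and 5.77 in Rnaseh2b. It averaged 3.88 ± 0.65 in p53 and 4.68 ± 1.12 in control (SD, n = 3 each), groups that overlap. Of the 7 libraries, Rnaseh2b replicate 2 was highest and Rnaseh2b/p53 replicate 2 lowest on both the myelin list and the medulla and pons list, and with the mean of the medulla and pons list in the model Cldn11 was at −0.95 (limma, adjusted p = 0.0302). Sox10 of the oligodendrocyte lineage fell by 1.24, and Erbb3, a receptor of the same lineage, by 1.94.

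**Figure D4:**
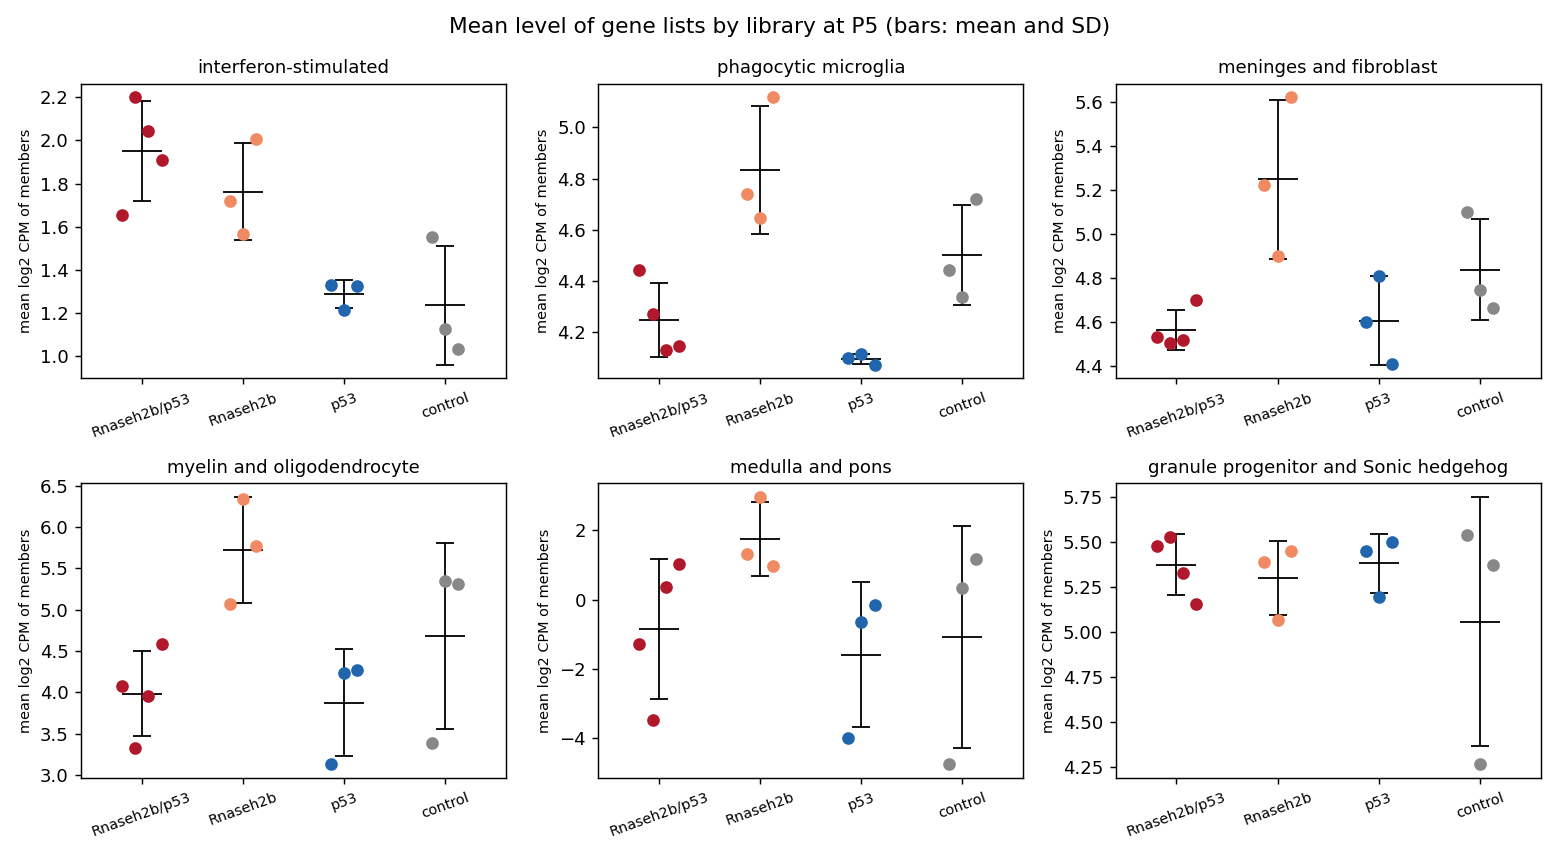
Mean log2 CPM of the members of 6 gene lists in each P5 library (points) with group mean and SD (bars). Meningeal and myelin means are higher in all 3 Rnaseh2b libraries than in the 4 Rnaseh2b/p53 libraries, while interferon-stimulated and granule progenitor means overlap.

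Of neuronal and proliferation genes, 1 Purkinje gene was called, a rise (1.12% of all genes rose). The 15 Purkinje genes had a median of −0.25 log2, with 4 differences above 0 and 11 below. None of 18 granule progenitor genes, 19 granule neuron genes, 20 mitosis genes, 24 replication genes or 19 DNA damage kinase and checkpoint genes passed the test, with medians of 0.05, 0.10, −0.08, 0.04 and 0.02 log2. Of these 100 genes 3 had an unadjusted p below 0.05 (limma). Progenitor genes averaged 5.48, 5.53, 5.33 and 5.15 in Rnaseh2b/p53, against 5.39, 5.07 and 5.45 in Rnaseh2b, which overlap. Precision was low for some of them: Atoh1, a transcription factor of the progenitors, differed by 0.12 with an SE of 1.10. Control replicate 2 and Atm replicate 1, low for their groups on the progenitor and mitosis lists, enter the shared estimate of spread. Lhx5, a homeobox factor of Purkinje cells, was the one Purkinje gene of 15 that rose, at 4.03, 3.96, 3.98 and 3.83 in Rnaseh2b/p53 and 3.38, 2.87 and 3.36 in Rnaseh2b (0.75 ± 0.13 SE; limma, adjusted p = 0.0081). Foxp2, another Purkinje factor, was 6.39 to 6.68 in Rnaseh2b/p53 and 6.28, 4.80 and 5.07 in Rnaseh2b, low in the same libraries as the midbrain list, and was not called (limma, adjusted p = 0.058).

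The remaining lists held few calls. Cdh15, a cadherin of muscle, was the one of 13 skeletal muscle genes that fell, and Sesn2 the one of 14 integrated stress response genes (1.91% of all genes fell). The muscle genes had a median of −0.86, with 1 difference above 0 and 12 below. At an unadjusted p below 0.05 (limma), 6 of them were lower and 1 higher. The muscle list averaged 1.21, 0.79, 0.955 and 0.52 log2 CPM in Rnaseh2b/p53, against 1.48, 1.48 and 1.87 in Rnaseh2b. No gene was called by limma among 10 for RNase H and ribonucleotide repair, 12 of inhibitory interneurons, 13 of choroid plexus, 8 of ciliated cells, 6 of erythroid cells, 14 of midbrain, 14 of medulla and pons, 10 immediate early genes or 13 encoded by mitochondria. At an unadjusted p below 0.05 these lists held 0, 4, 1, 2, 0, 8, 1, 2 and 0 genes in that order.

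Leaving out gene models, genes averaging under 1 log2 CPM and groups that overlap, the 12 called genes that rose most had varied roles. Hist1h4i, a histone, was 5.46, 5.30, 5.11 and 4.87 log2 CPM in Rnaseh2b/p53 and 4.18, 3.82 and 4.36 in Rnaseh2b, a rise of 1.07 (SE 0.22; limma, adjusted p = 0.0186). Histone genes come in near-identical copies, so reads may be shared. Zinc-finger genes Zfp963, Zfp97, Zfp947 and Zfp57 rose by 0.71, 0.70, 0.69 and 0.60, and the mitochondrial carrier Slc25a42 by 0.76. AY036118 rose by 3.17 (SE 0.73; limma, adjusted p = 0.0286) but reached 11.68 in Rnaseh2b/p53 replicate 4, against 7.66 to 7.99 in the other 3. It is a repeat-rich transcript whose reads may be shared. Rpl29, a ribosomal protein with pseudogene copies, was 2.61 to 2.87 in Rnaseh2b/p53 and 6.58 to 6.73 in Rnaseh2b, and 1 control library was also low, at 2.68 against 5.78 and 6.73.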

How the data were processed

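Values used are the authors' deposited log2 CPM per gene, with the deposited FPKM table as a second scale. Per the submitters' processing notes, the tools were limma, HTSeq, BWA, STAR and Trim Galore, and the build was mm9; their roles and versions are not given in the sources used here. Low values showed steps of 1 read (99.999% within 0.05 of a whole read, prior 0.5), which gave the depths. The 3 rows naming no gene held 19.66% to 31.75% of reads and were left out. Genes at 1 CPM or more in at least 3 libraries, 15421 of 19235 features, were fitted by limma 3.58.1 (R 4.3.3) with a variance trend over all 20 P5 libraries in 6 groups; p-values were adjusted by Benjamini-Hochberg and genes called at adjusted p below 0.05. Intervals are 95%. Only called genes are said to rise or fall.

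The comparison, the 31 gene lists and the rule for named genes (the 12 largest rises and falls with groups that do not overlap and a mean of at least 1 log2 CPM, gene models left out; up to 4 called members of each list; p53 targets called in other Rnaseh2b comparisons; the 4 highest of the p53, interferon, microglia and complement lists; the 10 smallest p in the difference of effects) were chosen with earlier results of these data known. Zic1, Calb1, Oasl2, Gbp2, Ifi35, Atoh1, Foxp2 and Rec8 are named outside that rule, after their values were seen. Some genes that the rule names are not reported here. The fit was tested on simulated counts, drawn independently around 1 mean per gene with changes set for some genes in Rnaseh2b/p53. That simulation held no tissue differences or outlying libraries, so it does not bear on calls that depend on them. No copies were found among libraries of 1 group (lowest chi-square per degree of freedom 19.6). Figures used Python 3.11.15 and matplotlib 3.10.9.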

Additional observations from a re-analysis of the deposited data

Results flagged for a closer look

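The effect of Rnaseh2b loss differed with p53 status for Gm15920 by a test of the difference itself, at −1.08 log2 (limma, adjusted p = 0.00359). No Cre is named for the control libraries in that test, so Nes-cre and p53 status cannot be told apart. By Xist, the mix of sexes also differed between its groups. A library standing far from the others of its group was found in 9 of 124 quantities checked in the 4 Rnaseh2b/p53 libraries, and chance alone flags about 1 in 20. Replicate 4 was high for AY036118, at 11.68 log2 CPM against 7.66 to 7.99, for Ccng1, at 6.07 against 5.87 to 5.90, and for the mean of the meninges list, at 4.70 against 4.50 to 4.53. Replicate 2 was high for 9030617O03Rik, at 1.63 against 1.08 to 1.13, and for B2m, the light chain of major histocompatibility class I, at 5.32 against 4.72 to 4.74. Replicate 1 was high for Itgax, at −0.49 against −0.84 to −0.82, and low for Plk2, at 5.795 against 5.93 to 5.94. Replicate 3 was low for Mapk8, at 6.805 against 6.86 to 6.87, and had 711 M reads in genes against 48.16 to 91.41 M.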

How the results depend on the processing

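All 62 named genes called in Rnaseh2b/p53 against Rnaseh2b kept their sign wherever they were tested, but only 23 stayed called with the replicate block, 11 without Rnaseh2b replicate 3, 47 with the medulla and pons covariate and 0 with the meninges covariate. The 466 calls became 91 with a replicate block, 1140 without control 2 and Atm 1, 270 with the medulla and pons covariate and 0 with the meninges covariate, both covariates being chosen after seeing the data, and 37 to 701 without 1 library. The 13 fallen p53 targets became 7, 21, 10 and 0 under the same 4 settings and 5 to 10 without 1 library. The 132 falls among genes raised in Rnaseh2b/Atm became 35, 226, 102 and 0, and 16 to 167 without 1 library. The difference of effects gave 13 calls with only its 4 groups fitted, 2 and 4 with log2 of FPKM plus 0.1 and plus 1, 3 without a variance trend, 2 with Xist as a covariate, 7 without control 2 and Atm 1, 2 with the medulla and pons covariate, and 1 to 16 without 1 library. Rnaseh2b against control, 105 calls, gave 0 with only both groups fitted (829 at an unadjusted p below 0.05), 48 with voom, 34 with Xist, 1 with the meninges covariate and 1 to 251 without 1 library. Rnaseh2b/p53 against p53, 29 calls, gave 61 with only both groups fitted, 11 with the block, 5 at 5 CPM or more, 14 with Xist, 46 without control 2 and Atm 1, and 6 to 16 without 1 library. The cause was not tested. Replicate numbers share no stated origin: same-numbered Rnaseh2b/p53 and Rnaseh2b libraries deviated with correlations of 0.177, −0.438 and −0.231, and only replicate 1 matched its own number best. For p53 and control these were 0.261, 0.553 and 0.3, each matching its own number best, for Rnaseh2b and control 0.255, 0.489 and 0.0686, and for Rnaseh2b/p53 and p53 0.23, −0.146 and −0.294. An edgeR test on recovered reads was planned and not run, and voom used library sizes implied by the values.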

Other observations

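Called genes in Rnaseh2b/p53 against Rnaseh2b lay next to each other in a few stretches, a pattern noticed after the values were seen and given here as counts. Of the tested genes 97.3% could be placed in order on the chromosomes of the RefSeq GRCm38.p6 gene table, and windows of 20 neighbouring tested genes held a median of 0 called genes. The fullest window, on chromosome 6, held 7: Sspn, Itpr2, Stk38l, Ccdc91 and Rps4y2 fell, and Ppfibp1 and Mrps35 rose. Another window on chromosome 6, starting at Dera, held 6, among them Kcnj8 (−0.65), Ldhb (−0.48) and Slco1c1 (0.51), so the called endothelial genes Kcnj8 and Slco1c1 are near neighbours. A window on chromosome 12 also held 6, with Gm9282 at −8.36 and Asap2 at −0.37. Gm9282 was almost absent in Rnaseh2b/p53, at −7.15 ± 1.23 log2 CPM (SD, n = 4), against 1.21 ± 0.60 in Rnaseh2b (SD, n = 3). In p53 against control it differed by −6.995, 3110053B16Rik by 2.4, Gm4983 by −1.5 and Pqlc3 by −0.85 (group means, no test). Nol10 differed there by −0.35 and Asap2 by −0.26. A window on chromosome 8 held 5 that all rose, Zfp868, Zfp963, Gmip, Mau2 and Sugp1, and a window on chromosome 9 held 5, including Rpl29 and Hemk1. In p53 against control, Sspn differed by −0.39, Rps4y2 by −0.39 and Ppfibp1 by 0.27, while in the window starting at Dera Kcnj8 differed by 0.07, Slco1c1 by −0.06 and Slco1a5 by 0.02 (group means, no test). What these stretches share was not tested.

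Rec8, a cohesin subunit of meiosis chosen after its values were seen, averaged 3.41 ± 0.20 log2 CPM in Rnaseh2b/p53 (SD, n = 4) and −0.91 ± 1.55 in Rnaseh2b (SD, n = 3), a rise of 4.33 (SE 0.77; limma, adjusted p = 0.00967). It averaged 2.44 ± 1.41 in p53 and −2.24 ± 1.56 in control libraries (SD, n = 3 each).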
